A study of Mus musculus with 6 samples.

Results

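The enzymes described here make serine, move one-carbon units on folate, and make asparagine. They are Phgdh, Psat1 and Psph of serine synthesis, Shmt1 and Mthfd1 of the cytosolic folate cycle, Shmt2, Mthfd2 and Mthfd1l of the mitochondrial folate cycle, and Asns, 9 of the 18192 genes with a probe set of their own on the array. Every probe set annotated to 1 of these genes and to no other was taken, which gave 23 of the 45032 analysed. Of these, 20 passed a filter on low signal, as did 27019 over the whole array, and each of the 9 genes kept at least 1. The 3 that did not pass belong to Shmt1. A further 2 probe sets annotated to Phgdh are shared with the gene models Gm8096 and Gm6756 and were left out.

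The arrays measured RNA of bone marrow erythroid progenitors sorted for CD71, which takes up transferrin, and for the erythroid surface marker Ter-119. There were 3 Rb-null arrays and 3 control arrays, all single-colour Affymetrix mouse arrays. The Rb-null genotype was EpoR-GFPcre/+ with Rb fl/fl, while control cells had EpoR-GFPcre/+ with Rb fl/+. Both groups thus carried the Cre, placed at the locus of the erythropoietin receptor and so limited to cells that use it, and the controls carried 1 floxed Rb allele. The study asked, by its title, how the retinoblastoma protein Rb links leaving the cell cycle with the making of mitochondria in red cell formation. The labels give no ages and do not state that arrays of a group came from separate animals. A p-value here therefore reflects only how far these arrays differ, which may be technical.

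Serine is made from the glycolytic intermediate 3-phosphoglycerate by Phgdh, Psat1 and Psph in turn. Serine hydroxymethyltransferases, Shmt1 in the cytosol and Shmt2 in mitochondria, pass a carbon of serine to tetrahydrofolate, and the Mthfd enzymes interconvert the folate forms that feed purine, thymidylate and methionine synthesis. Erythroid precursors divide fast and use glycine, the other product of the serine hydroxymethyltransferases, for heme. Phgdh, Psat1, Shmt2, Mthfd2 and Asns are known targets of ATF4, the transcription factor of the integrated stress response.

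Promoter sequence is shown for Mthfd2, the member with the largest difference between the groups, and for Asns, the member whose promoter held a match to the core of the C/EBP-ATF response element. Both are from RefSeq on GRCm38.p6, on the minus strand, and are the 150 bases before the annotated start, at chr6:83317605-83317754 for Mthfd2 and chr6:7693210-7693359 for Asns. Capitals mark CCAAT, or its reverse complement ATTGG, in Mthfd2 and the match to TGATGNAA in Asns.
Mthfd2: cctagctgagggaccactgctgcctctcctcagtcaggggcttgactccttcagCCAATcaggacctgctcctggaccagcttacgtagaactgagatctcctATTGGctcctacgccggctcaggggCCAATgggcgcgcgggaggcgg
Asns: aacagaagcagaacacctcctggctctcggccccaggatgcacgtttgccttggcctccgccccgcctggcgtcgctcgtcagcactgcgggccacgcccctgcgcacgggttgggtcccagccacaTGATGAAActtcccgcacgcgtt
All 9 genes matched the RefSeq promoter table, with 10 promoters because Psat1 has 2. The letters TGATGNAA, searched on both strands from 250 bases before to 50 after the start, stood in 1 of the 10 member promoters, that of Asns, and in 3.97% of all 32851 promoters. The CCAAT letters stood in 6 of the 10 and in 37.4% of all promoters. In Mthfd2 they began 96, 47 and 22 bases before the start, and the Asns match began 23 bases before it. These matches describe letters and not binding.

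Deposited intensities had array medians between 23.3 and 31.2, and with 3 arrays a group the precision is low. In both groups the array numbered 3 stood apart in its 18S ribosomal RNA control probe sets. They averaged 1231 on control 3 and 542.5 on Rb-null 3, while the remaining 4 arrays lay between 32.6 and 66.2. The 3-prime to 5-prime ratio of the actin control was 1.667, 1.149 and 1.181 on controls 1 to 3. It was lower on each Rb-null array of the same number, at 1.431, 1.098 and 1.014. The part of these differences in the member values was not tested. Arrays of the same number resembled each other across the groups, so differences are also given within the pairs numbered 1, 2 and 3. Rb1 signal was not lower on the arrays labelled Rb-null. Its bright probe set read 1379 to 2760 on the control arrays and 2897 to 4045 on the Rb-null arrays (log2 fold change 0.75, SE 0.32). No source used here says whether this probe set falls in the floxed part of Rb1, so it does not check the labels, and each direction rests on the labels alone. The 14 erythroid markers past the filter had a median log2 fold change of 0.03. Among them Epor, whose locus carries the Cre, read 2221 in control 1 and 2228 in Rb-null 2 but 248 to 609 on the other 4 arrays, and the cause was not tested.

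Mthfd2 differed most among the members, close to 3-fold brighter in Rb-null cells on both of its probe sets. The other mitochondrial enzymes went different ways, since 3 of the 4 probe sets of Shmt2 were brighter in each pair while Mthfd1l was dimmer in each. The cytosolic enzymes Shmt1 and Mthfd1 were dimmer in each pair on every probe set tested, and the serine synthesis genes had no common direction. Asns was brighter in pairs 1 and 3 after normalization. None of this passed limma's test at an adjusted p of 0.05 over all 27019 probe sets in a fit of the group alone. That fit called 0 of the 20 member probe sets and 0 of all probe sets (0%). It leaves the differences between array numbers in its error, so its 0 calls do not show that differences are absent. Each SE and interval printed in the text with a log2 fold change comes from that fit. On every member probe set the SE was smaller with the replicate number as a block. It was 0.15 in place of 0.42 for Shmt1 1425177_at and 0.15 in place of 0.59 for Mthfd1 1436704_x_at. For Mthfd2 it was 0.255 in place of 0.408 on 1419254_at and 0.20 in place of 0.28 on 1419253_at. With the replicate number as a block, limma again called 0 of each (0%). At unadjusted p under 0.05 there were 3 member probe sets higher and 0 lower, where 2.80% and 1.34% of all probe sets were.

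**Figure D1:**
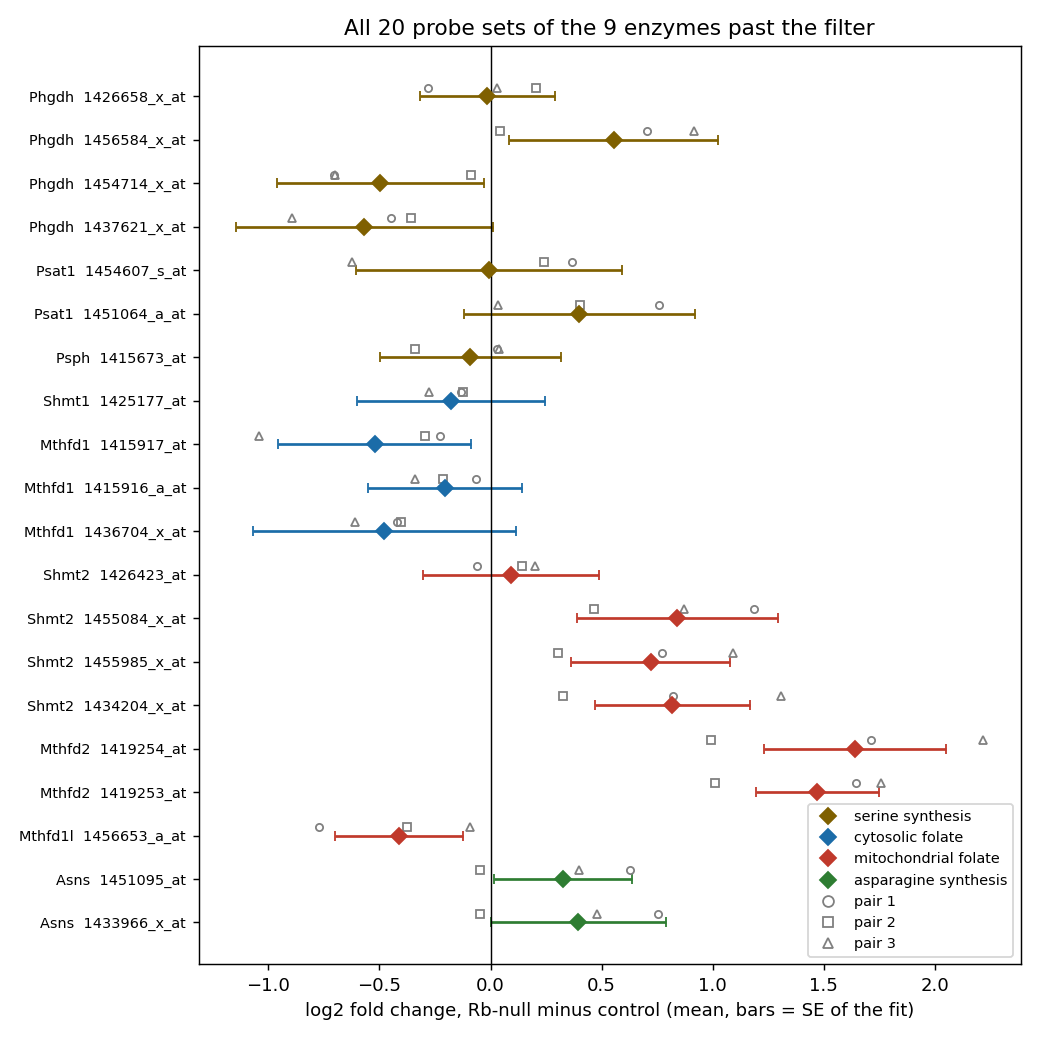
Log2 fold change of Rb-null over control (horizontal axis) for each of the 20 member probe sets past the filter (vertical axis), as the limma estimate with its SE and the differences within pairs 1, 2 and 3. Both Mthfd2 probe sets lie to the right, at 1.64 and 1.47, and 10 of the 20 lie on each side of 0.

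A fit that added a variance trend and robust moderation to the block was the exception. It called 605 probe sets higher (2.24%) and 333 lower (1.23%), and among the members it called the 2 probe sets of Mthfd2 higher and 0 lower. The normalized values of the groups did not overlap for 2 member probe sets with Rb-null higher, both of Mthfd2, against 5.73% of all probe sets. With Rb-null lower this held for 1, against 3.91%. Every pair was higher for 7 member probe sets (20.3% of all probe sets) and every pair lower for 7 (22.0%), and 6 were mixed. Several of these are probe sets of the same gene. By gene, on the probe set of highest mean, 1 of the 9 was higher in every pair (18.4% of all genes). Another 3 were lower in every pair (24.1%), and 5 were mixed. The median log2 fold change was 0.04 over the 20 member probe sets and -0.01 over all probe sets.

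Mthfd2 is the mitochondrial enzyme that dehydrogenates methylene-tetrahydrofolate and opens the ring of the product, and it is known as an enzyme of dividing cells. On probe set 1419254_at controls 1, 2 and 3 gave deposited intensities of 428, 1011 and 634. The matching Rb-null arrays gave 1512, 2113 and 3371. Every Rb-null array was brighter than every control, and the lowest of the former exceeded the highest of the latter by less than the controls differed among themselves. The means were 691 ± 295 and 2332 ± 949 (SD, n = 3 each). On the normalized log2 scale the fold change was 1.64 (SE 0.41, 95% interval 0.71 to 2.57), or 3.12-fold, with pair differences of 1.71, 0.99 and 2.22. In bulk RNA, a different share of cells of a type and a different amount of RNA per cell cannot be told apart, for this and every other member.

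The second Mthfd2 probe set, 1419253_at, gave a like picture with less spread among Rb-null arrays. Its intensity was 507, 837 and 409 in the controls, and 1677, 1778 and 1514 in Rb-null 1 to 3. The groups were well separated, with means of 584 ± 225 and 1656 ± 133 (SD, n = 3 each). The log2 fold change was 1.47 (SE 0.28, 95% interval 0.84 to 2.10), or 2.77-fold, and pair 2 had the smallest difference here too, 1.01 against 1.64 and 1.76. The limma adjusted p was 0.641 for the first probe set and 0.419 for this one. With the replicate block it was 0.0999 for each. That is also the lowest limma value with the block over the whole array, where 214 probe sets lay under 0.1. With the trend and robust moderation beside the block, limma gave adjusted p = 0.0223 and 0.0176. No array turned the direction when left out, and the 2 log2 fold changes then ran from 1.27 to 1.92 and from 1.33 to 1.68.

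**Figure D2:**
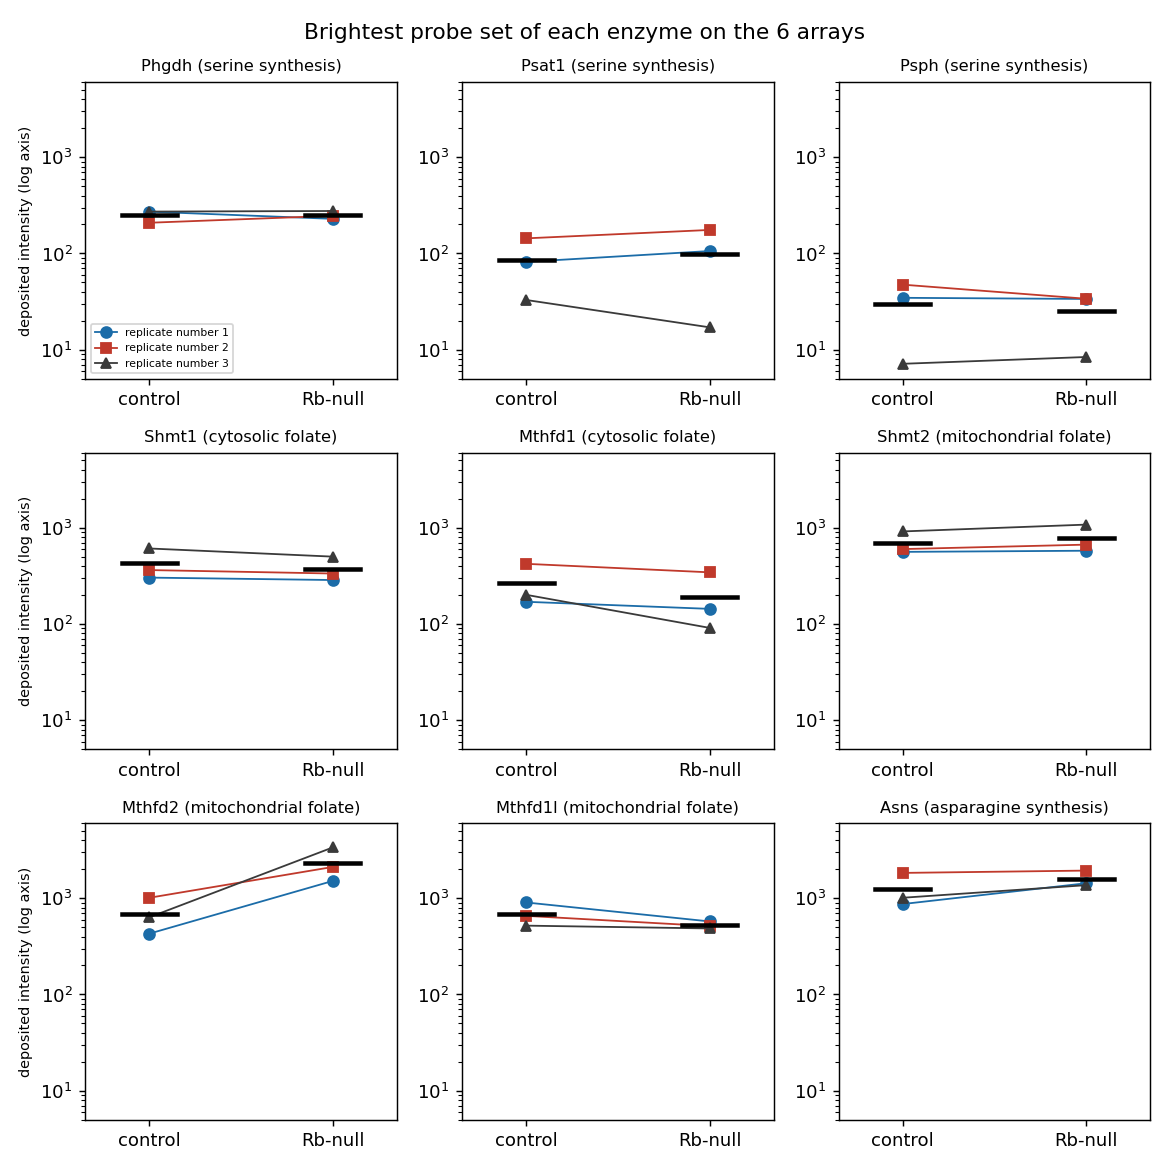
Deposited intensity (vertical axis, log scale) on each of the 6 arrays for 1 probe set of each enzyme, the one with the highest mean log2 value, with control and Rb-null arrays of a pair joined by a line and black bars at the group means. Mthfd2 is the enzyme whose Rb-null points, from 1512 to 3371, all lie above its control points, from 428 to 1011.

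Shmt2 makes glycine and a folate-bound carbon from serine inside mitochondria, and its probe sets disagreed on the size of the difference. The brightest, 1426423_at, read 561, 600 and 915 in controls 1 to 3, and 577, 667 and 1077 in Rb-null 1 to 3. The groups overlapped, and the arrays numbered 3 were the brightest of each group. The log2 fold change was 0.09 (SE 0.40), with pair differences of -0.06, 0.14 and 0.20. The sign of pair 1 turned with normalization, since the deposited values were 561 and 577. Probe set 1455084_x_at read 126, 420 and 121 in the controls, and 306, 591 and 232 in Rb-null 1 to 3, a log2 fold change of 0.84 (SE 0.45). Here each Rb-null array was brighter than its control, while control 2 lay above Rb-null arrays 1 and 3. For 1455985_x_at the log2 fold change was 0.72 (SE 0.36) and for 1434204_x_at it was 0.82 (SE 0.35), and both were higher in every pair. The last had an unadjusted p of 0.0447 in limma and an adjusted p of 1. A suffix of x_at marks probe sets that may also bind other transcripts.

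Mthfd1l makes formate from formyl-tetrahydrofolate in mitochondria, the step that follows Mthfd2. Its single probe set read 904, 656 and 519 in controls 1 to 3, and 574, 513 and 485 in Rb-null 1 to 3. Rb-null intensities were lower in each pair, yet array 1 of the Rb-null group was brighter than control 3, so the deposited values overlapped. After normalization the groups just did not overlap. The means were 693 ± 195 and 524 ± 45.4 (SD, n = 3 each), and the log2 fold change was -0.41 (SE 0.29; limma adjusted p = 1), with pair differences of -0.77, -0.37 and -0.09. Over the 7 mitochondrial probe sets 6 were positive and 5 were higher in each pair, and the median log2 fold change was 0.82. By gene, with each gene read on its probe set of highest mean, Mthfd2 stood at 1.64, Shmt2 at 0.09 and Mthfd1l at -0.41.

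Shmt1, the cytosolic serine hydroxymethyltransferase, read 303, 363 and 609 in controls 1 to 3, and 286, 334 and 501 in Rb-null 1 to 3. Each Rb-null array was dimmer than its control, but the difference between the arrays numbered 3 and the rest exceeded that between the groups. The log2 fold change was -0.18 (SE 0.42), with pair differences of -0.13, -0.12 and -0.28. The 3 other Shmt1 probe sets, left out by the filter, read at most 29.3 on any array.

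Mthfd1 is the cytosolic enzyme that carries in 1 protein the activities that mitochondria divide between Mthfd2 and Mthfd1l. Probe set 1415917_at read 170, 422 and 201 in controls 1 to 3, and 143, 344 and 91.1 in Rb-null 1 to 3. Array 2 was the brightest of either group, and the groups overlapped. The log2 fold change was -0.52 (SE 0.43), with pair differences of -0.23, -0.29 and -1.04. The other Mthfd1 probe sets had -0.21 (SE 0.35) and -0.48 (SE 0.59), and both were lower in every pair. All 4 cytosolic probe sets were thus lower in each of the 3 pairs, a pattern that 22.0% of all probe sets had, and 0 of the 4 passed limma's test (adjusted p = 1 for each).

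Phgdh, the first enzyme of serine synthesis, was close to 0 on its brightest probe set. It read 272, 208 and 272 in controls 1 to 3, and 229, 246 and 276 in Rb-null 1 to 3, with a log2 fold change of -0.01 (SE 0.30, 95% interval -0.71 to 0.68). That interval leaves room for a change in either direction. The other Phgdh probe sets disagreed with each other. Probe set 1456584_x_at had a log2 fold change of 0.55 (SE 0.47), while 1454714_x_at and 1437621_x_at had -0.50 (SE 0.47) and -0.57 (SE 0.58). Each of these 3 had 1 sign in all 3 pairs, and none passed limma's test (adjusted p = 1). Over all genes with several probe sets past the filter, 46.2% of 5415 had at least 1 probe set on each side of 0, and among the 6 such members Phgdh and Psat1 did.

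Psat1, the aminotransferase of the second step, varied more between array numbers than between groups. Probe set 1454607_s_at read 81.8, 144 and 32.9 in controls 1 to 3, and 106, 175 and 17.1 in Rb-null 1 to 3. Rb-null arrays 1 and 2 were above their controls and array 3 was below, and the log2 fold change was -0.01 (SE 0.60). The other probe set, 1451064_a_at, had 0.40 (SE 0.52), with pair differences of 0.76, 0.40 and 0.03. Psph, the phosphatase that releases serine, was dim. It read 34.6, 47.4 and 7.14 in the controls, and 33.7, 33.8 and 8.40 in Rb-null 1 to 3, and its log2 fold change was -0.09 (SE 0.41). Of the 7 serine synthesis probe sets, 2 were positive and 5 negative.

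Asns transfers the amide nitrogen of glutamine to aspartate. Probe set 1451095_at read 870, 1832 and 1011 in controls 1 to 3, and 1431, 1937 and 1367 in Rb-null 1 to 3. Control 2 was brighter than Rb-null arrays 1 and 3, so the groups overlapped. The means were 1238 ± 520 and 1579 ± 312 (SD, n = 3 each). The log2 fold change was 0.33 (SE 0.31), with pair differences of 0.63, -0.05 and 0.40. Probe set 1433966_x_at read 705, 1421 and 455 in the controls, and 1280, 1428 and 656 in Rb-null 1 to 3, and its log2 fold change was 0.40 (SE 0.39). Both probe sets had the same order of pairs, with the difference in pair 2 near 0, and a limma adjusted p of 1. In pair 2 the deposited intensity was slightly higher on the Rb-null array for both, and the sign turned with normalization.

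Array number held a larger share of the members' sum of squares than genotype did. Its median share was 76.5% over the 20 member probe sets, against 15.8% for the group, and over all probe sets the medians were 69.0% and 9.88%. It exceeded the group's share in 15 of the 20 member probe sets (75%) and in 80.8% of all probe sets. There are more array numbers than groups, and the shares are not corrected for this. The number would thus hold the larger share in most probe sets even if arrays of the same number were unrelated. For Shmt2 1426423_at the number held 97.5%. The group's share was the larger in the other 5, at 74.5% and 93.0% on the probe sets of Mthfd2, 46.5% and 55.5% on Shmt2 1455985_x_at and 1434204_x_at, and 42.9% on Mthfd1l.

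Mitochondrial and cytosolic enzymes were then compared within each array, as the log2 value of the mitochondrial probe set minus that of the cytosolic one. Only the change of this difference between groups can be read, since its level depends on the probes. For Mthfd2 minus Mthfd1 it was 1.34, 1.24 and 1.58 in controls 1 to 3, and 3.28, 2.53 and 4.84 in Rb-null 1 to 3. The groups did not overlap, and the mean went from 1.39 ± 0.18 to 3.55 ± 1.18 (SD, n = 3 each), a change of 2.16. Without Rb-null replicate 3 the change was 1.502, and without Rb-null replicate 2 it was 2.67. For Shmt2 minus Shmt1 controls 1 to 3 had 0.89, 0.69 and 0.53, and Rb-null 1 to 3 had 0.96, 0.96 and 1.01. These did not overlap either, with means of 0.71 ± 0.18 and 0.98 ± 0.03 (SD, n = 3 each) and a change of 0.27. With the other Shmt2 probe sets in its place, a choice made after seeing the data, the change was 1.02, 0.90 and 1.00.

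For Mthfd1l minus Mthfd1 controls 1 to 3 had 2.40, 0.62 and 1.29, and Rb-null 1 to 3 had 1.86, 0.54 and 2.24, which overlapped. The change was 0.11, lower in pairs 1 and 2 and higher in pair 3, and its sign turned when some arrays were left out (-0.30 to 0.61). By the exact 2-sided permutation test of 3 against 3 arrays, p was 0.1 for Mthfd2 and for Shmt2 and 1 for Mthfd1l, and 0.1 is the smallest value that exchanging arrays freely allows. Within pairs the differences were 1.94, 1.29 and 3.26 for Mthfd2 and 0.07, 0.26 and 0.48 for Shmt2. An exact 2-sided sign-flip permutation within pairs, added after seeing the data, gave p = 0.25 for both, the smallest that 3 pairs allow. Adjusted over the 3 comparisons, the exact permutation p was 0.15, 0.15 and 1. Mthfd2 and Mthfd1l, which share the cytosolic partner, therefore had changes of 2.16 and 0.11 against it. Both rest on Mthfd1 1415917_at, whose log2 fold change of -0.52 was lower than those of 1415916_a_at (-0.21) and 1436704_x_at (-0.48). Against either of these both changes would be smaller. That of Mthfd1l, with -0.41 itself, would be negative against 1415916_a_at.

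**Figure D3:**
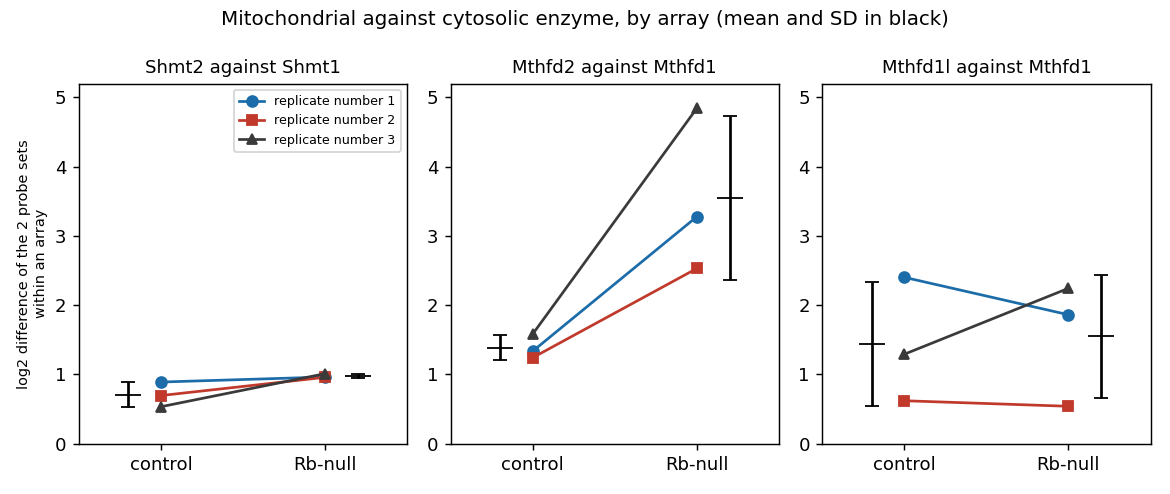
Log2 value of the mitochondrial minus the cytosolic enzyme (vertical axis) on each of the 6 arrays for Shmt2 against Shmt1, Mthfd2 against Mthfd1 and Mthfd1l against Mthfd1, with arrays of 1 number joined. Only shifts between groups can be read, and the shift is 2.16 for Mthfd2, 0.27 for Shmt2 and 0.11 for Mthfd1l.

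The wider pathways around these enzymes showed few differences. Of 21 further genes of folate metabolism listed, 14 were tested at the gene level, 7 of them positive, with a median log2 fold change of -0.02 against -0.04 over all 13232 genes. Thymidylate synthase, Tyms, which uses methylene-tetrahydrofolate to make thymidylate, read 55.5, 81.9 and 59.8 in controls 1 to 3, and 156, 147 and 136 in Rb-null 1 to 3. Its groups did not overlap, and the log2 fold change on this probe set was 1.02 (SE 0.26; limma adjusted p = 0.652, or 0.0401 with the block, trend and robust moderation). The 2 other Tyms probe sets, 1427811_at and 1442192_at, had 0.42 (SE 0.35) and -0.18 (SE 0.31). The formyltetrahydrofolate dehydrogenase Aldh1l1 had 0.39 (SE 0.30), Ftcd of histidine breakdown 0.42 (SE 0.33), and the methionine synthase reductase Mtrr -0.35 (SE 0.33).

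In the methionine cycle and transsulfuration list, 6 genes were tested and 2 were positive, with a median of -0.09. Adenosine kinase, Adk, had -0.36 (SE 0.39), the methyltransferase Gnmt 0.20 (SE 0.32), cystathionine beta-synthase, Cbs, 0.19 (SE 0.42) and Mat2b -0.10 (SE 0.28). Of 10 tested genes in a list around serine and glycine use, 4 were positive, with a median of -0.15. That list also holds enzymes that use neither, such as Pkm and Pgam1 of glycolysis. Serine racemase, Srr, had 0.29 (SE 0.25), pyruvate kinase, Pkm, -0.50 (SE 0.50), the glycine cleavage subunit Dld -0.44 (SE 0.47) and Sptlc1 of sphingolipid synthesis -0.44 (SE 0.50). In these lists limma called 0 genes in any of the 3 fits. The aspartate, glutamate and proline list had 8 of 11 genes positive and a median of 0.14, and again 0 were called. Aldh18a1, the first enzyme of proline synthesis, had 0.45 (SE 0.26), Pycrl 0.43 (SE 0.43), the proline dehydrogenase Prodh -0.48 (SE 0.46) and Aspg 0.18 (SE 0.25).

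A list of other ATF4 response genes was set beside the members, since several of these enzymes are ATF4 targets. Of its 43 genes 35 were tested, 29 were positive, and the median log2 fold change was 0.50, with pair medians of 0.61, 0.40 and 0.54. In each of the 3 pairs 21 were higher and 3 lower, against 18.4% and 24.1% of all genes. Limma called 0 of them, and also 0 with the block. With the trend and robust moderation beside the block it called 14 higher and 0 lower, where it called 2.19% and 1.34% of all genes. The list was put together with earlier results on Ddit3 and Ddit4 in these arrays known, so its direction is not independent evidence.

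Ddit3, the CHOP transcription factor induced by ATF4, read 249, 249 and 155 in controls 1 to 3, and 1059, 1038 and 989 in Rb-null 1 to 3. Its groups were far apart, with a log2 fold change of 2.15 (SE 0.26; limma adjusted p = 0.323). Ddit4, an inhibitor of mTOR signalling, had 2.60 (SE 0.38), Cebpg, a partner of ATF4 on DNA, 1.40 (SE 0.26), and the translation repressor Eif4ebp1 1.49 (SE 0.32). Atf4 itself had 0.60 (SE 0.46). Of the members known as ATF4 targets, Mthfd2 had log2 fold changes of 1.64 and 1.47, Asns 0.33 and 0.40, and Psat1 -0.01 and 0.40. The 4 probe sets of Shmt2 ran from 0.09 to 0.84 and the 4 of Phgdh from -0.57 to 0.55, and the whole list from -0.30 to 2.60. Whether Mthfd2 differs from the other members in its response was not tested.

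**Figure D4:**
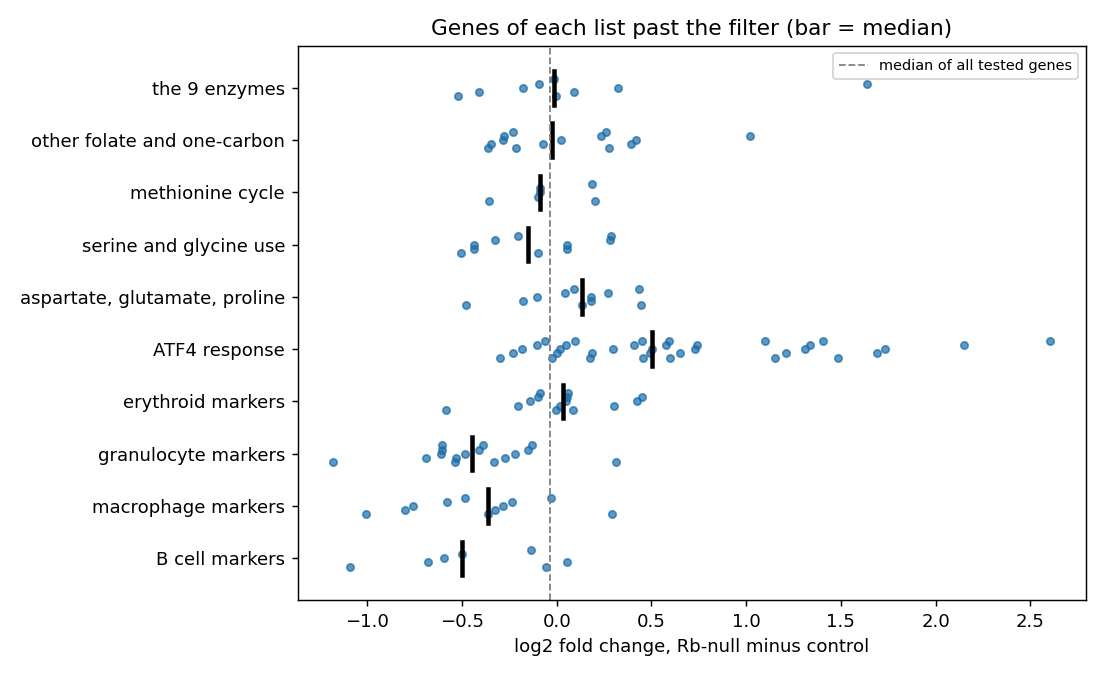
Log2 fold change of Rb-null over control (horizontal axis) for each tested gene of the member groups, the neighbouring pathways, the ATF4 response list and the cell type markers (vertical axis), with the median of each list marked. The ATF4 response list has a median of 0.50, while the folate, methionine and serine use lists have medians of -0.02, -0.09 and -0.15.

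Markers of other cells of the marrow were mostly lower in Rb-null cells in pairs 1 and 3, and limma called 0 of them in any of the 3 fits. Of the 16 granulocyte markers tested 15 were negative, where 7225 of all 13232 genes were, with a median log2 fold change of -0.45 and pair medians of -0.81, -0.01 and -0.61. Their summed intensity was 37069 to 54499 on the controls and 27348 to 54777 on the Rb-null arrays, so the groups overlapped, and none read 0 on any array. Macrophage markers (10 of 11 negative) had a median of -0.36 and sums of 1724 to 2901 and 1392 to 1769. B cell markers (6 of 7 negative) had -0.50 and sums of 522 to 791 and 305 to 456. The medians were -0.28 for T and NK cells, -0.24 for megakaryocytes and -0.33 for mast cells, basophils and eosinophils. In pair 2 the medians were -0.01 for granulocytes, 0.04 for macrophages and -0.27 for B cells. That pair also had the smallest Mthfd2 differences, 0.99 and 1.01, against 1.71 and 2.22 and against 1.64 and 1.76 in pairs 1 and 3. The part of these markers in the values of Mthfd2 and the other members was not tested.

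The genes whose pattern over the 6 arrays was most like that of Mthfd2 or Asns were read as a description, from Pearson's r over all other tested genes. The 6 arrays share the genotype groups and the replicate numbers, and no test was made. For Mthfd2 they were Zc3h14, Scaf11, Ppp1r2, Sac3d1 and Zfp384, with r from 0.994 to 0.998 and log2 fold changes from 0.70 to 1.09. For Asns they were Igsf11, Fkbp4, Fam118b, Wrap53 and Eif6, with r from 0.958 to 0.991 and log2 fold changes from 0.18 to 0.61. The 2 sets have no gene in common. With 5 genes in each, out of 13231, that says little about whether the patterns differ. Between members, Mthfd2 and Asns had r = 0.68, and Mthfd1l had -0.73 with Mthfd2 and -0.85 with Asns. Shmt2 and Shmt1, the mitochondrial and the cytosolic form, had r = 0.94 on their brightest probe sets, with both highest on the arrays numbered 3. The other Shmt2 probe sets past the filter were instead highest on the array numbered 2 of each group.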

How the data were processed

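Expression was read on 6 single-colour arrays, 3 Rb-null and 3 control, with groups and numbers from the sample titles. The deposited files hold 1 linear intensity for each probe set and array. Per the labels, the RNA came from a Trizol extraction with QIAGEN columns and carried a biotin label. How the authors summarised the scans or scaled the arrays is unstated. Unused per-sample columns numbered 0.

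From 45101 probe sets, 64 controls, 4 empty ones and 1 with a value above the 16-bit range of 65535 were dropped. The platform annotation gave 34941 of the other 45032 a single gene symbol, 932 several and 9159 none. Intensities were taken as log2(value + 16), and since the medians of the arrays spread over 0.264, quantile normalization followed. A probe set was tested if its mean exceeded the 40th percentile (log2 5.12, intensity 18.9), which left 27019 probe sets of 13232 genes. At the gene level each gene was read on its probe set of highest mean.

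Groups were compared with limma 3.58.1 in R 4.3.3, 2-sided, with Benjamini-Hochberg adjustment over all 27019 probe sets. Fold changes are Rb-null over control on the log2(value + 16) scale, which understates those of dim probe sets. Arrays of the same number had deviations from their group means that correlated at 0.64, 0.62 and 0.67 (highest between numbers 0.07), so the numbers pair the arrays, though the labels do not say what a number stands for. The replicate block, array weights, other offsets, scalings and filters, and leaving out arrays were alternatives.

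The members, the gene lists and the naming rule (all members, up to 4 genes of smallest p from each neighbouring list, 5 genes of highest r) were chosen with earlier results of these data known.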

Additional observations from a re-analysis of the deposited data

How the results depend on the processing

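Of the 20 member probe sets 12 kept their sign in every alternative that tested them (16 to 18 each, as some drop a probe set). Alternatives that change only the filter, the block, the variance moderation or the choice of probe set per gene leave a fold change as it was. They could not change a sign. The other 8 changed it in at least 1, as did 7 of 30 other named genes. With the replicate block 0 probe sets and 0 members were called, as without it. The Mthfd2 value stayed 1.64, which was fixed in advance, as each number has a control and an Rb-null array. The replicate block with trend and robust moderation called 938 probe sets, 2 of them members, and 1 member gene; its variance model is the sole difference from the plain block. Mthfd2 ran from 1.27 to 1.92 and from 1.30 to 1.68 over all alternatives.

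For the sign changes the cause was not tested. Phgdh 1426658_x_at had 0.0036 and 0.0042 with the deposited and the median scaling. Psat1 1454607_s_at had 0.0063 and 0.0069 there, 0.0451 with an offset of 64, 0.2154 with array weights and 0.3063 without both arrays numbered 3. Without those arrays Prodh had 0.0602 and Mthfd1l against Mthfd1 -0.2977. With 1 array left out in turn, values ran from -0.2103 to 0.1408 (Phgdh 1426658_x_at), -0.4734 to 0.6663 and -0.0161 to 0.8866 (Psat1 1454607_s_at and 1451064_a_at), -0.4541 to 0.205 (Psph), -0.5068 to 0.2025 (Shmt1), -0.252 to 0.384 (Shmt2 1426423_at), -0.4505 to 0.0461 and -0.988 to 0.0933 (Mthfd1 1415916_a_at and 1436704_x_at) and -0.3017 to 0.6078 (Mthfd1l against Mthfd1). They ran from -0.6882 to 0.009 (Adk), -0.192 to 0.4175 (Cbs), -0.7586 to 0.0478 (Dld), -0.0125 to 0.4313 (Gnmt), -0.2606 to 0.0301 (Mat2b) and -0.8773 to 0.0266 (Sptlc1). Dim probe sets such as that of Psph lie near background.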
